A study of Mus musculus with 28 samples.

Results

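Polycomb proteins and the enzymes that add, read or remove histone methylation were followed across mouse germ cells and related cell lines as a list of 46 genes. They were chosen by name and role, and a gene was measured where the array carried a probe whose RefSeq accession is assigned to its symbol, with the brightest probe kept per gene. That held for 34 of the 46 genes, among 13023 named genes on the array. Bmi1, Phc1, Phc3, Ehmt2, Setdb2, Cbx5, Kdm1a, Kdm2b, Kdm3a, Kdm3b, Kdm5a and Kdm6b had no such probe and were not analysed here.

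Polycomb repressive complex 2 (PRC2) methylates histone H3 on lysine 27 through its catalytic subunit, Ezh2 or Ezh1, held together by Suz12 and Eed. Polycomb repressive complex 1 (PRC1) ubiquitinates histone H2A through Rnf2 or Ring1 paired with a Pcgf protein, and its canonical forms read the PRC2 mark through a Cbx protein and carry a Phc subunit. A separate silencing system methylates lysine 9 of histone H3 (Ehmt1, Setdb1 with its cofactor Trim28, Suv39h1 and Suv39h2) and is read by the heterochromatin proteins Cbx1 and Cbx3, while Kdm enzymes remove methyl groups. Primordial germ cells (PGC), from which eggs and sperm descend, are known for a broad rearrangement of these marks while their DNA loses methylation.

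RNA of 28 samples was hybridised to 28 single-colour arrays in 14 groups of 2. PGC of E10.5, E13.5 and E17.5 embryos, male and female, came from the strain BDF1 x TgN(deGFP)18Imeg. Spermatogonia (male) and oogonia (female), of unstated age, came from BDF1 x Tg(Mvh-Venus)1Rbrc. EG cells are pluripotent cells grown from PGC, here male and female and derived on Rb(X.2)2Ad X 129/Sv, and their source field names PGC of 12.5 dpc (days post coitum) while their titles say EG. ES cells, pluripotent cells of the early embryo, were the male line TMA5 (F1 hybrid of TgN(deGFP)20Imeg and MSM/Ms) and the female line no5 (129/Sv). GS cells are cultured spermatogonial stem cells, here male DBA/2, and adult testis came from C57BL/6J males. No label states a mutated gene or a drug treatment, but the strain names are not all of unaltered mice. Those of PGC, spermatogonia, oogonia and male ES cells hold a transgene (Tg or TgN), and that of EG cells holds the designation Rb(X.2)2Ad. Each ES sex is 1 line, and the labels do not say how germ cells were isolated or whether cultures held feeder cells. No label states that the 2 samples in a group are separate animals or cultures. The p-values therefore measure only how far these samples spread, and that spread may be technical.

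A level is log2 of the array's processed signal minus the 75th percentile of that array, taken over probes well above background on all 28 arrays, so 0 is that percentile. Levels of different genes come from different probes and were not set against each other. The share of probes well above background ran between 17.8% (E10.5 males, replicate 1) and 76.7% (testis, replicate 1), and E10.5 replicate 1 stood lowest in both sexes. The number of arrays limits the precision. All 5 germ cell genes of a marker list (Ddx4, Dazl, Mael, Tdrd7, Tex101) were well above background on both arrays of E13.5 and E17.5 PGC, spermatogonia, oogonia, GS and testis, and 3 of 5 in E10.5 males and 4 of 5 in E10.5 females. All 5 were also so in EG and ES cells, so this count does not separate germ cells from those lines. Log2 of their summed level was 2.59 to 4.07 in E13.5 and E17.5 PGC, spermatogonia, oogonia, GS and testis. It was -1.22 to 0.29 in E10.5 PGC and -3.13 to -1.37 in EG and ES cells. All 6 oocyte genes were well above background on both arrays of oogonia and E17.5 females. So were 5 of 6 in spermatogonia and GS cells and 4 of 6 in E17.5 males and testis. Log2 of their summed level was 1.35 to 2.59 in oogonia and E17.5 females and at most -0.87 in any other group. All 6 pluripotency genes were detected so in EG and ES cells, but also in PGC of E10.5 and E13.5 and in E17.5 males. All 4 genes of undifferentiated spermatogonia were so in GS cells, while spermatogonia lacked Zbtb16 among those 4. Such counts alone do not mark a group. In PGC the replicate number is also the scan day, and same-numbered PGC arrays deviated together. EG, ES, spermatogonia and oogonia each lie on 1 slide of their own, so in comparisons that involve them slide and group cannot be told apart. In whole samples, fewer cells of a type and less RNA per cell cannot be told apart.

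Of the 34 members, 18 were well above background on all 28 arrays. Over those 18, the difference between the highest and the lowest group mean had a median of 3.01 log2 units and ran between 1.02 (Setdb1) and 4.73 (Phf1), against a median standard deviation within groups of 0.18 over all members. Kdm1b, a demethylase of histone H3 lysine 4 that mouse oocytes need to establish imprints, ranged over 7.19 units, with its highest group mean in oogonia and its lowest in E10.5 males. Kdm4d, a demethylase of lysine 9, ranged over 11.58 units, but only testis, GS, oogonia and E17.5 females had both arrays well above background. The heat map of group means shows these patterns for every member.

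**Figure D1:**
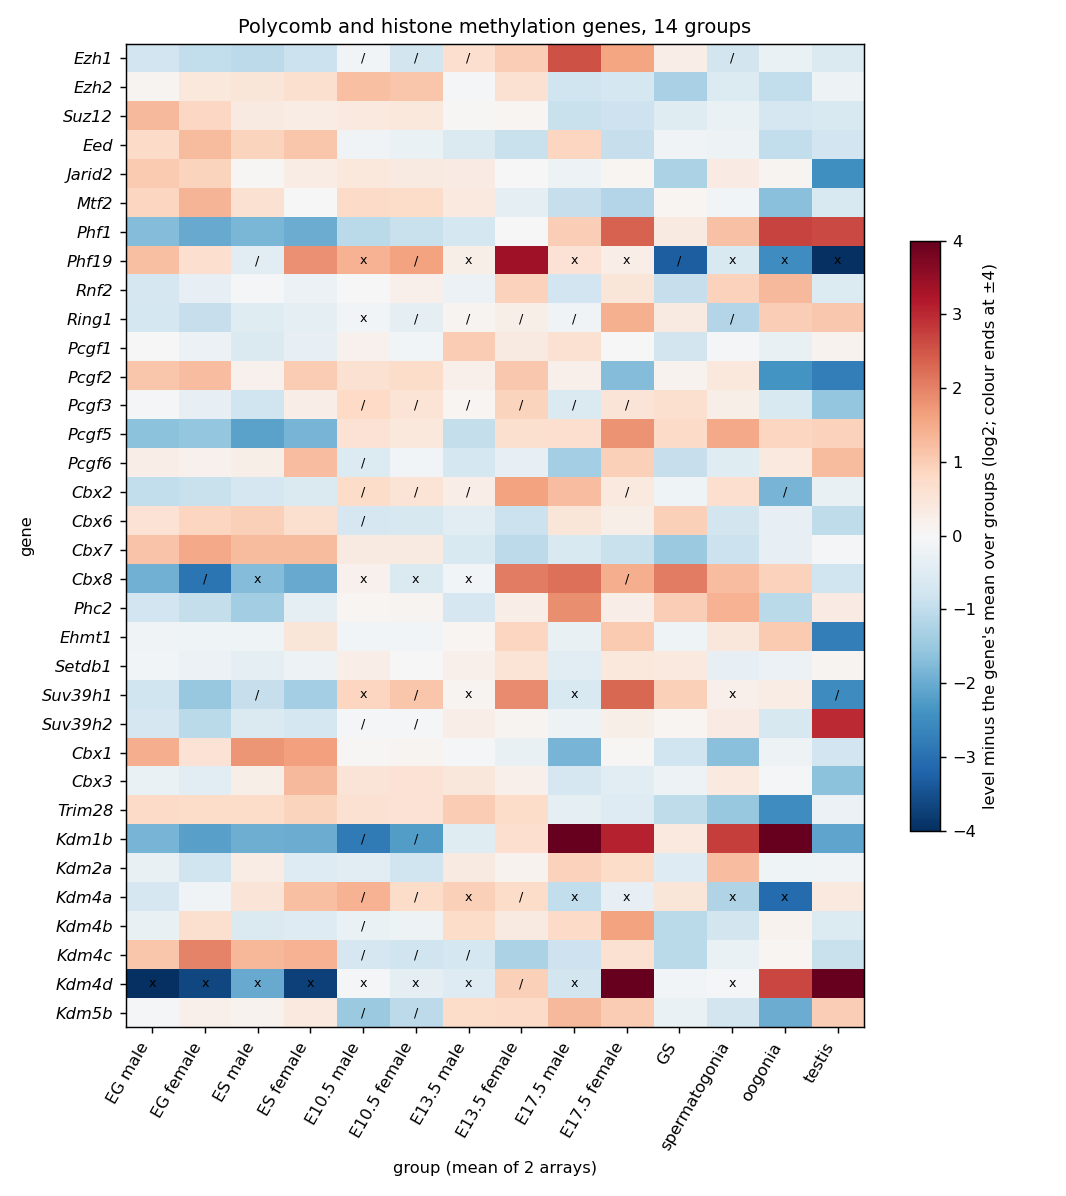
Mean level of each of the 34 measured genes (rows) in each of the 14 groups (columns, 2 arrays each), as log2 difference from the gene's mean over groups, red higher and blue lower, with the colour ending at 4 units either way. A slash marks a group with 1 of 2 arrays well above background and an x a group with none. Kdm1b is dark red in E17.5 PGC, spermatogonia and oogonia and blue in E10.5 PGC, EG, ES and testis.

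Each comparison below was fitted with limma over all 28 arrays, and a gene is called where its Benjamini-Hochberg adjusted p is under 0.05 over all genes tested. Comparisons that use the same group share its arrays, so their calls are not independent. Between E13.5 and E10.5 PGC, 10 of 30 members tested were called (33.3%, against 31.8% of all genes). Of these 6 were higher and 4 lower at E13.5 (all genes: 21.8% and 9.96%), with a median change of 0.12 against 0.24 log2 units over all genes. Between E17.5 and E13.5 males 12 of 28 were called (42.9%, against 41.8%), 7 higher and 5 lower (all genes: 29.5% and 12.3%), with a median of -0.07 against 0.50. Between E17.5 and E13.5 females 13 of 32 were called (40.6%, against 32.6%), 8 higher and 5 lower (18.1% and 14.5%), with a median of 0.14 against 0.11. The change differed between the sexes for 8 of 32 members (25%, against 26.2%), 6 of them up and 2 down in males relative to females (all genes: 16.3% and 9.86%). Leaving out 1 array gave 3 to 7 calls. The 8 were Phf19, Pcgf2, Pcgf6, Cbx2, Cbx8, Phc2, Cbx1 and Kdm1b, of which Phf19 and Cbx8 have no measured size because groups lacked an array well above background, and a call in 1 sex alone does not show a difference for any other member. In the stage comparisons these shares lie near the background. Males differed from females in 6 of 30 members at E13.5 (20%, against 12.2%), with 0 higher and 6 lower (all genes: 4.43% and 7.74%), and a median of -0.18 against -0.13. At E17.5 they differed in 14 of 31 (45.2%, against 49.4%), with 4 higher and 10 lower (29.4% and 20%), and a median of -0.10 against 0.27.
Spermatogonia differed from E17.5 males in 6 of 29 (20.7%, against 11.9%), with 2 higher and 4 lower (all genes: 5.11% and 6.81%), and a median of 0.21 against -0.11. That count was 2 or 3 whichever of the 4 arrays was left out and 0 with slide as a random block. Oogonia differed from E17.5 females in 7 of 31 (22.6%, against 14.9%), with 0 higher and 7 lower (4.53% and 10.4%), and a median of -0.54 against -0.27. That count was 3 to 8 without 1 array (3 without E17.5 female replicate 2 or either oogonia array) and 0 with slide as a random block. Spermatogonia differed from oogonia in 13 of 32 (40.6%, against 46.8%), with 7 higher and 6 lower (30.7% and 16%), and a median of 0.23 against 0.32. Kdm4d, among the lower, entered that test through oogonia alone. EG cells differed from PGC of E10.5 and E13.5 in 21 of 33 (63.6%, against 41.9%), with 9 higher and 12 lower (18.4% and 23.6%), and a median of -0.45 against -0.19. They differed from ES cells in 1 of 33 (3.03%, against 4.93%), with 0 higher and 1 lower (3.37% and 1.55%). GS cells differed from spermatogonia in 5 of 33 (15.2%, against 23%), with 1 higher and 4 lower (10.8% and 12.3%). From testis they differed in 15 of 33 (45.5%, against 46.3%), with 9 higher and 6 lower (19.5% and 26.8%).

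Promoters of 4 PRC2 genes are shown because Ezh2, Suz12 and Phf19 were each called lower in E17.5 than in E13.5 females and Ezh1 was called higher in males, and they were chosen after these values were seen. The sequences are from RefSeq (GRCm38.p6), 250 bases before to 50 after the start, 5′ to 3′ on the gene's strand. Capitals mark a match to 1 of 4 words of the E2F type (TTTGGCGC, TTTCCCGC, TTTGCCGC or TTTCGCGC) on either strand. Ezh2 lies at chr6:47594981-47595280 (minus strand), Suz12 at chr11:79992856-79993155 (plus), Phf19 at chr2:34913927-34914226 (minus) and Ezh1 at chr11:101226414-101226713 (minus).
Ezh2: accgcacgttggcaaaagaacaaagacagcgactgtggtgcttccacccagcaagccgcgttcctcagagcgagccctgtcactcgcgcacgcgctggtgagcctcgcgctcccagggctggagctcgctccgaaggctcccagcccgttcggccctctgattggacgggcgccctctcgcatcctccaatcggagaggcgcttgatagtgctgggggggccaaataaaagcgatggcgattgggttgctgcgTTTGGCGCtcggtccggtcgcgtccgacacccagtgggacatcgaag
Suz12: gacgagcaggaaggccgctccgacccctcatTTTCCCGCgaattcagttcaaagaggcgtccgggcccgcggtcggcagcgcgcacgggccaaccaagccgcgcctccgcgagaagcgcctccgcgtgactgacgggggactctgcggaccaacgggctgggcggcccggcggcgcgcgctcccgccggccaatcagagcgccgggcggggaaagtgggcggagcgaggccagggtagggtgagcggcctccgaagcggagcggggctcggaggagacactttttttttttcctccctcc
Phf19: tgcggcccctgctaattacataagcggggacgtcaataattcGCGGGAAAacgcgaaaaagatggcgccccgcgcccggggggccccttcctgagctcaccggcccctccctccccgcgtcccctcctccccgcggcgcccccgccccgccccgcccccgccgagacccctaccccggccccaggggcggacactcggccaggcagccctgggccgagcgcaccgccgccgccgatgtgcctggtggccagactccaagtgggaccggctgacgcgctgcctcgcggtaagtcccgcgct
Ezh1: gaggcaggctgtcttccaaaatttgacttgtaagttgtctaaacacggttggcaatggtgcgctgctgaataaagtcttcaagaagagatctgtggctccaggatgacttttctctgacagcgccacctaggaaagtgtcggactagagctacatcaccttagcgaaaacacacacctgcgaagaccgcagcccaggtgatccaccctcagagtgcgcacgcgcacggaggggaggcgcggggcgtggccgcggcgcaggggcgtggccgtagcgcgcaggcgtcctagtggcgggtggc
The table held a promoter for 30 of the 34 measured members (39 promoters). At least 1 of the 4 words was found in 5 of the 39 (12.8%), those of Cbx3, Ezh2, Phf19, Suv39h1 and Suz12, against 2.27% of all 32851 promoters of the same length. The E-box CACGTG was found in 12.8% against 7.15%, and TGACGTCA in 5.13%, those of Cbx8 and Suv39h2, against 1.79%. Member promoters held a median of 24 CpG, against 7 over all promoters. Pcgf2 and Trim28, the other members called lower in E17.5 than in E13.5 females, held none of the 4 E2F-type words. Neither did Mtf2, called lower in E17.5 than in E13.5 males. Cbx3 and Suv39h1 held a word and were not called lower in those females, and Cbx3 was called lower in males. A match is a description of the letters and not evidence of a site.

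The catalytic subunits of PRC2 moved in opposite directions through PGC development. Ezh2, the main H3 lysine 27 methyltransferase of dividing cells, lay at 0.44 and 0.29 in E10.5 males, -0.89 and -0.83 in E13.5 males and -1.48 and -1.75 in E17.5 males. In females it lay at 0.50 and 0.04, then -0.27 and -0.17, then -1.58 and -1.45. Within each sex the 3 stages did not overlap, and each later stage was lower. The difference was -0.86 ± 0.23 log2 units for E13.5 against E10.5 (SE, 4 arrays each; limma adjusted p = 0.00892), -1.29 ± 0.32 for E17.5 against E13.5 in females (2 arrays each; adjusted p = 0.00601) and -0.76 ± 0.32 in males, which missed the threshold (adjusted p = 0.0685). The sexes' changes were not shown to differ (0.53 ± 0.45, adjusted p = 0.419). A second Ezh2 probe read -0.38 in the first of these and -1.64 in the second. Without the E10.5 replicate 1 arrays the first missed the threshold (adjusted p = 0.0684), and so it did for the mean of all probes (adjusted p = 0.0781).

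Ezh1, the paralogue that predominates in resting cells, lay at -5.74 and -6.18 in E10.5 males, -5.07 and -5.26 in E13.5 males and -3.54 and -3.01 in E17.5 males. In females the values were -7.03 and -6.10, then -5.02 and -4.67, then -4.54 and -3.95. Each later stage was thus higher in both sexes, though 1 array of each E10.5 sex and 1 of E13.5 males was not well above background. The difference was 1.26 ± 0.32 for E13.5 against E10.5 (adjusted p = 0.00658), 1.88 ± 0.45 for E17.5 against E13.5 in males (adjusted p = 0.00346) and 0.60 ± 0.45 in females (adjusted p = 0.325). With normexp background correction the first of these read -0.30, and it was not called. In spermatogonia Ezh1 lay at -7.12 (not well above background) and -5.99, 3.28 ± 0.45 below E17.5 males (adjusted p = 8.61e-04), a size that rests partly on undetected signal. In oogonia it lay at -6.16 and -6.03, 1.85 ± 0.45 below E17.5 females (adjusted p = 0.0133). Neither difference was called with slide as a random block (adjusted p = 0.0990 and 0.206), and the call in oogonia was also lost without either oogonia array (adjusted p = 0.0963 and 0.0790) or without E17.5 female replicate 2 (adjusted p = 0.118).

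Within each array the Ezh2 minus Ezh1 difference does not depend on the array's scaling, and only its change between stages is read here. It averaged 6.58 ± 0.65 log2 units at E10.5, 4.46 ± 0.24 at E13.5 and 2.19 ± 0.72 at E17.5 (SD, n = 4 each), and neighbouring stages did not overlap. The steps were -2.12 and -2.27, each with p = 0.0286 (exact two-sided permutation test), the smallest p that 4 arrays against 4 allow, and 0.0762 after adjustment over 8 such tests. None of the 8 passed the adjusted threshold (3 at the unadjusted p). That test exchanges arrays across scan days and sexes. With arrays paired by sex and scan day, chosen after seeing the data, p was 0.125 for each step, the smallest that 4 pairs allow, so this design could not pass. The sizes rest partly on Ezh1 values not well above background, on 2 of 4 arrays at E10.5 and 1 of 4 at E13.5. The 2 other E10.5 arrays had differences of 6.14 in females and 6.47 in males. Of 12 listed proliferation genes 10 had a probe, and log2 of their summed level was 3.40 to 3.89 at E10.5, 3.30 to 3.55 at E13.5, 1.99 to 2.14 at E17.5, 1.09 to 1.19 in spermatogonia and 1.40 to 1.59 in oogonia. The ranges at E13.5 and E10.5 overlap, and spermatogonia lay below E17.5 PGC. Their part in these changes was not tested.

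**Figure D2:**
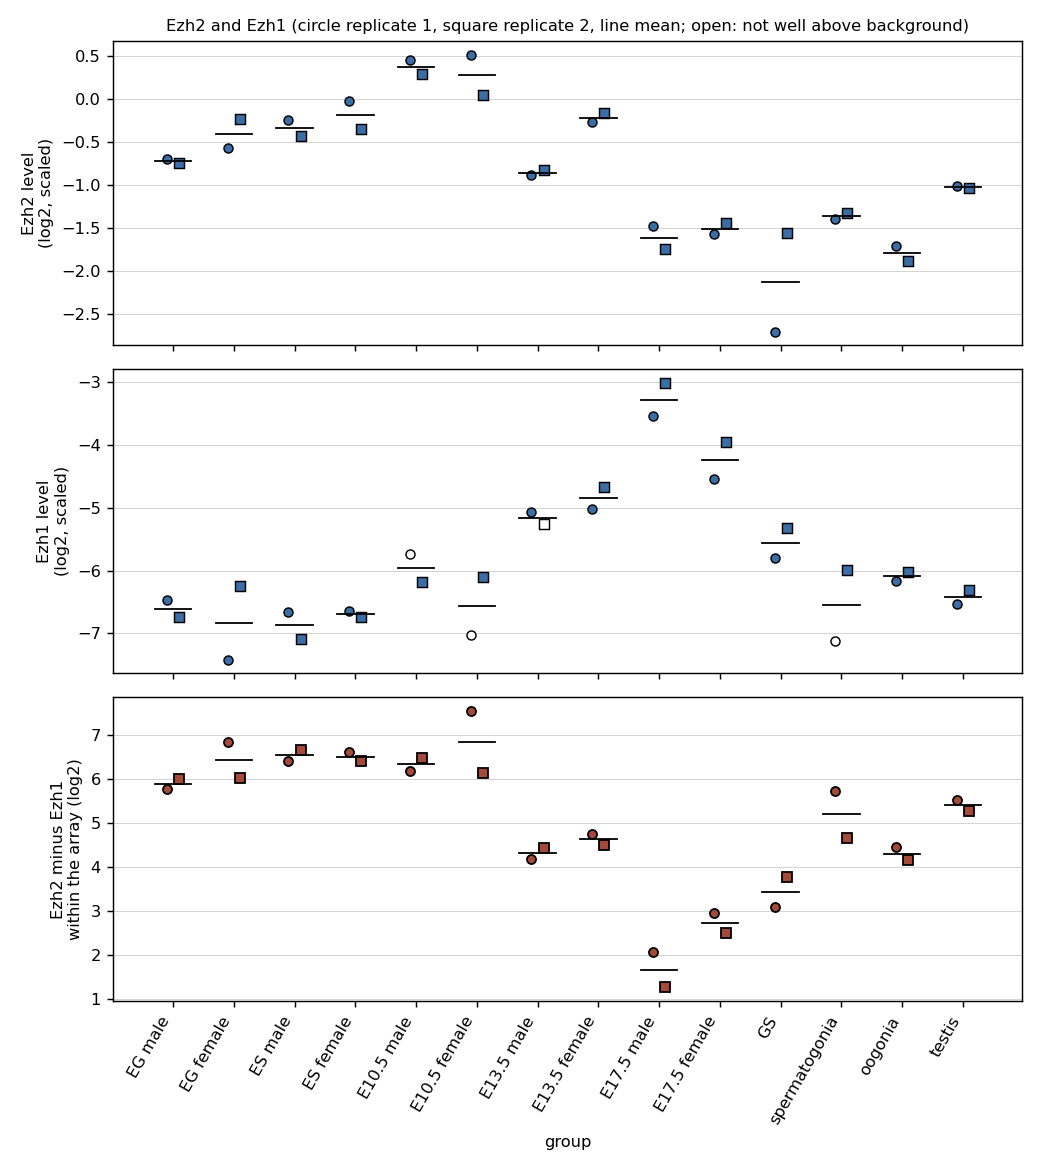
Level of Ezh2 (top) and Ezh1 (middle) and their difference within each array (bottom), in log2 units, for 2 arrays of each of 14 groups. Circles are replicate 1, squares replicate 2, lines means, and open symbols arrays where the probe was not well above background. The difference falls in order of stage in PGC, with means of 6.58, 4.46 and 2.19 over both sexes.

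Of the core subunits, Suz12 was lower at E17.5 and Eed differed between the sexes there. Suz12 had -2.02 and -2.01 in E17.5 males against -0.87 and -1.31 in E13.5 males, and -2.16 and -1.76 in E17.5 females against -1.02 and -1.09 in E13.5 females. It was lower at E17.5 in both sexes, by -0.93 ± 0.32 in males (adjusted p = 0.0293) and -0.90 ± 0.32 in females (adjusted p = 0.0408). The female call was lost without any single one of its 4 arrays (adjusted p between 0.0569 and 0.211) and the male call without each array but E13.5 male replicate 2 (adjusted p between 0.0978 and 0.166). Eed, which binds the mark and stimulates the enzyme, had -0.42 and 0.24 in E17.5 males against -2.11 and -1.62 in E17.5 females. That difference of 1.78 ± 0.37 (adjusted p = 0.00101) was about as large on each scan day, 1.69 and 1.86. Eed was 1.43 ± 0.37 higher in E17.5 than in E13.5 males (adjusted p = 0.00626, or 0.0884 without E17.5 male replicate 2), and the female difference was -0.03 ± 0.37 (adjusted p = 0.964), but the difference between these changes, 1.46 ± 0.52, missed the threshold (adjusted p = 0.0507).

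Among the accessory subunits, Phf1 and Mtf2, related Tudor-domain proteins that help bring PRC2 to chromatin, moved in opposite directions. Phf1 had -0.79 and -0.61 in E17.5 males against -2.60 and -2.17 in E13.5 males, and 0.80 and 0.56 in E17.5 females against -1.64 and -1.68 in E13.5 females. The groups did not overlap in either sex, and Phf1 was higher at E17.5 by 1.68 ± 0.32 in males (adjusted p = 6.38e-04) and 2.33 ± 0.32 in females (adjusted p = 4.92e-05). It was lower in males than in females, by -1.38 ± 0.32 at E17.5 (adjusted p = 0.00207) and by -1.52 ± 0.32 in spermatogonia against oogonia (adjusted p = 9.34e-04). Its smaller increase of 0.63 ± 0.22 between E13.5 and E10.5 (adjusted p = 0.0415) rested on values that overlapped and kept its call without only 2 of the 8 arrays, those of E10.5 female and E13.5 male replicate 1.
Mtf2 was lower at E13.5 than at E10.5 by -0.73 ± 0.24 (adjusted p = 0.0310, kept without only 2 of 8 arrays), and lower in E17.5 than in E13.5 males by -1.33 ± 0.34 (adjusted p = 0.00589, or 0.0502 without E17.5 male replicate 1). In E17.5 females, with -0.91 and -0.46 against -0.13 and 0.42 in E13.5 females, the change of -0.83 ± 0.34 missed the threshold (adjusted p = 0.0733). Phf19, the third relative, was detected well above background on both arrays of E13.5 females (-4.79 and -3.91) and on no array of E13.5 males, E17.5 males or E17.5 females. It was at least 2.89-fold lower in E13.5 males than in females (adjusted p = 0.00727, or 0.0826 without E13.5 female replicate 2) and at least 4.25-fold lower in E17.5 than in E13.5 females (adjusted p = 0.00281). Jarid2, which guides PRC2 to its targets, was called only in GS cells against spermatogonia, described with the cell lines.

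Pcgf2 and Phc2 were higher in male than in female PGC at E17.5, and higher in spermatogonia than in oogonia. Pcgf2, a Pcgf subunit of canonical PRC1, had -2.60 and -2.78 in E17.5 males against -4.59 and -4.67 in E17.5 females, and -2.49 and -2.48 in spermatogonia against -5.27 and -5.26 in oogonia. The male values lay above the female ones on every array, by 1.94 ± 0.29 (adjusted p = 7.07e-05) and 2.78 ± 0.29 (adjusted p = 1.78e-06). For E17.5 against E13.5 the difference was -0.01 ± 0.29 in males (adjusted p = 0.989) and -2.80 ± 0.29 in females (adjusted p = 4.58e-06), and the interaction was 2.80 ± 0.42 (adjusted p = 1.65e-04). It held without any single array.
Phc2, a polyhomeotic subunit that links PRC1 complexes to each other, had -0.22 and 0.21 in E17.5 males against -1.77 and -1.43 in E17.5 females, and -0.47 and -0.48 in spermatogonia against -2.95 and -2.90 in oogonia. Males were higher by 1.60 ± 0.25 (adjusted p = 9.30e-05) and 2.45 ± 0.25 (adjusted p = 1.27e-06). At E13.5 the order was the other way, with -2.46 and -2.60 in males against -1.58 and -1.59 in females (-0.95 ± 0.25, adjusted p = 0.0212), and that call was lost without E13.5 female replicate 1 or 2 (adjusted p = 0.138 and 0.105) or E13.5 male replicate 2 (adjusted p = 0.123). Phc2 was 2.53 ± 0.25 higher at E17.5 than at E13.5 in males (adjusted p = 2.67e-06), and the difference was -0.02 ± 0.25 in females (adjusted p = 0.968). The interaction of 2.55 ± 0.35 (adjusted p = 9.38e-05) held without any single array.

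Markers of supporting cells (Sertoli and pregranulosa) moved with the sexes. Log2 of the summed level of the 8 measured genes was 1.92 to 2.95 in E17.5 males, with 7 of 8 well above background on both arrays, against -2.46 to -1.53 in E17.5 females with 3 of 8. It was -0.23 to 0.92 in E13.5 males with 6 of 8 against -2.91 to -2.83 in E13.5 females with 3 of 8, and 0.09 to 0.29 in spermatogonia against -2.11 to -2.01 in oogonia with 7 of 8 in both. Foxl2, which marks pregranulosa cells, was not well above background in any of these 6 groups. Blood genes were higher at E17.5 (0.16 to 1.93 in males and 1.5 to 4.06 in females) than at E13.5 (-2.12 to -0.29 in males and -5.93 to -1.24 in females). Their part in the stage and sex differences was not tested.

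Other PRC1 genes were lower in males at E17.5. Pcgf6, a subunit of a variant PRC1 active at germ cell genes, had -4.84 and -4.40 in E17.5 males against -2.58 and -2.08 in E17.5 females, a difference of -2.29 ± 0.41 (adjusted p = 2.81e-04). Pcgf5, of another variant complex, was lower in males by -1.61 ± 0.27 at E13.5 (adjusted p = 0.00116) and by -1.14 ± 0.27 at E17.5 (adjusted p = 0.00267), and Rnf2, the E3 ligase, by -1.14 ± 0.27 (adjusted p = 0.0119) and -1.25 ± 0.27 (adjusted p = 0.00139). The E13.5 call of Rnf2 was lost without E13.5 female replicate 1 or 2 or E13.5 male replicate 2 (adjusted p = 0.0993, 0.0707 and 0.164), and that of Pcgf5 for the mean of its 4 probes (adjusted p = 0.195). Of the other Pcgf5 probes, those well above background on 28 arrays read -1.73 and -1.67 there. The one well above background on 4 arrays read 1.95. Pcgf5 was higher at E17.5 than at E13.5 in both sexes, by 1.62 ± 0.27 in males (adjusted p = 2.50e-04) and 1.15 ± 0.27 in females (adjusted p = 0.00411). Rnf2 was 1.68 ± 0.27 higher in spermatogonia than in E17.5 males (adjusted p = 0.00219, or 0.138 with slide as a random block). Ring1, the other ligase, was called only in spermatogonia against oogonia (-2.15 ± 0.70, adjusted p = 0.0195), a call that was lost without 3 of the 4 arrays and read 0.32 with normexp background correction.

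Of the Cbx readers of PRC1, Cbx7, the one that predominates in ES cells, had -2.02 and -2.10 in E13.5 males and -2.49 and -2.51 in E13.5 females, against -1.01 and -1.15 in E10.5 males and -1.11 and -1.06 in E10.5 females. All 4 arrays at E13.5 lay below all 4 at E10.5, by -1.20 ± 0.20 (adjusted p = 3.38e-04), and the step was -1.20 on each scan day. E17.5 differed from E13.5 by 0.02 ± 0.29 in males (adjusted p = 0.962) and 0.16 ± 0.29 in females (adjusted p = 0.717). Cbx2 was 2.51 ± 0.47 higher in spermatogonia than in oogonia (adjusted p = 4.11e-04, or 0.0562 with slide as a random block), where 1 of 2 arrays was well above background. Cbx8 had both arrays well above background in E17.5 males (-5.12 and -4.55) and neither in E13.5 males, and was at least 2.07-fold higher in E17.5 than in E13.5 males (adjusted p = 0.0116). That call was lost without E13.5 male replicate 2 (adjusted p = 0.0600) or E17.5 male replicate 2 (adjusted p = 0.0928). At E13.5 Cbx8 was at least 1.85-fold lower in males than in females (adjusted p = 0.0460), a call that was lost without any single one of the 4 arrays and read 0.01 with normexp correction. Cbx6 was called in E17.5 against E13.5 females (1.09 ± 0.37, adjusted p = 0.0343), and that call was kept without only 1 of the 4 arrays, E17.5 female replicate 1. Pcgf1 was called in no comparison, and Pcgf3 only in GS cells against testis.

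**Figure D3:**
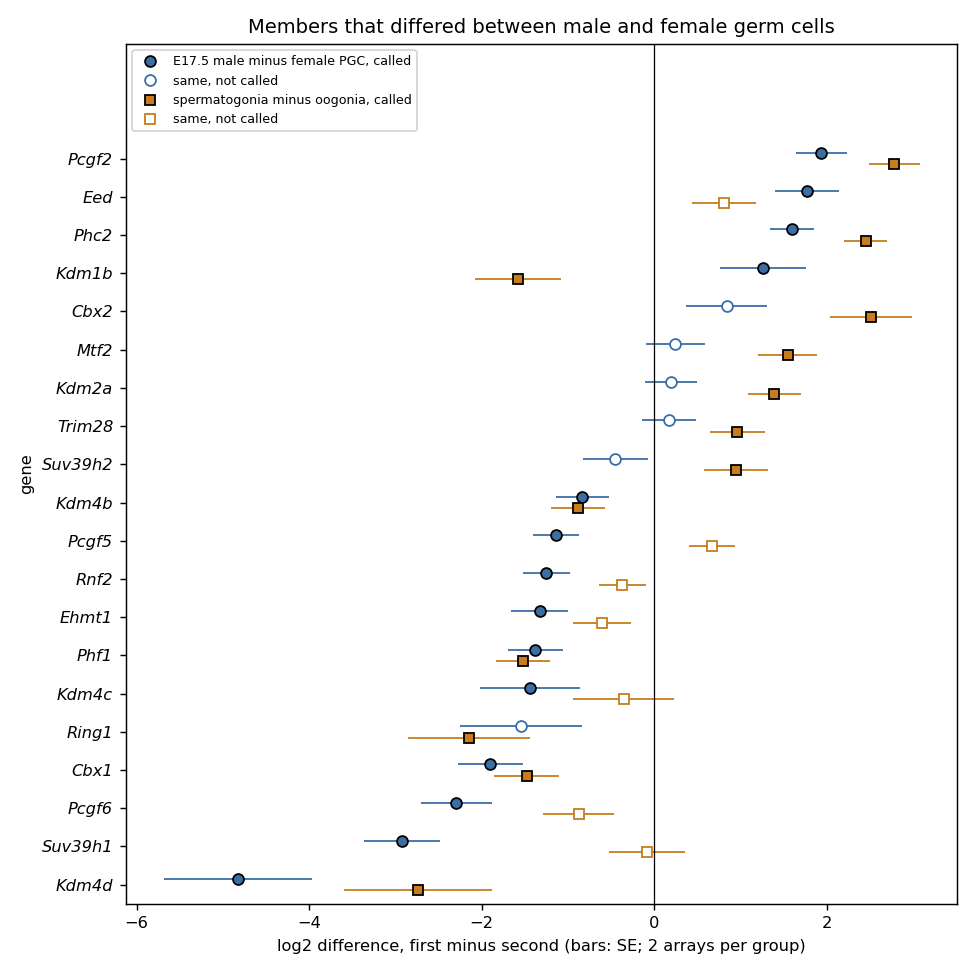
Log2 difference of male minus female germ cells with its standard error, for the 20 members called at E17.5 (blue circles) or in spermatogonia against oogonia (orange squares). Filled symbols are called and open ones are not, 2 arrays per group. Pcgf2 and Phc2 lie right of 0 and Phf1, Cbx1, Kdm4b and Kdm4d left of 0 in both comparisons, while Kdm1b lies on opposite sides. No array of E17.5 males or spermatogonia had Kdm4d or Suv39h1 well above background, so their distances from 0 are not measured sizes.

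Males and females of E17.5 and the spermatogonia and oogonia share no array. Of the 14 members called between the sexes at E17.5 and the 13 called between spermatogonia and oogonia, 7 were in both lists (50.0% and 53.8% of them). Over all genes 5340 were in both, 67% and 60.7% of those called. The sign was the same for 6 of the 7 members and for 98.1% of all genes in both lists. The Kdm4b call in spermatogonia against oogonia was kept without only 1 of the 4 arrays, spermatogonia replicate 2. Pcgf2 and Phc2 were higher in males in both comparisons, and Cbx1, Phf1, Kdm4b and Kdm4d were lower. Kdm1b was higher in males at E17.5 and lower in spermatogonia than in oogonia. With slide as a random block, 2 of the 13 calls between spermatogonia and oogonia were made, those of Pcgf2 (adjusted p = 0.00174) and Phc2 (adjusted p = 0.00112). In that fit no member was called in spermatogonia against E17.5 males or in oogonia against E17.5 females (limma; 9 and 7 at an unadjusted p under 0.05).

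In the H3 lysine 9 system, Cbx1, a heterochromatin protein that reads the mark, had -2.07 and -3.0 in E17.5 males against -0.81 and -0.45 in E17.5 females, and -2.46 and -2.26 in spermatogonia against -1.32 and -0.43 in oogonia. It was lower in males by -1.90 ± 0.38 (adjusted p = 6.77e-04) and -1.48 ± 0.38 (adjusted p = 0.00423, or 0.0893 without oogonia replicate 2). In males it was -1.76 ± 0.38 lower at E17.5 than at E13.5 (adjusted p = 0.00171). Cbx3, another reader, was also lower there (-1.11 ± 0.40, adjusted p = 0.0353), a call kept without only 1 of the 4 arrays, E13.5 male replicate 1.
Trim28, the corepressor that brings Setdb1 to transposons, had 0.68 and 0.87 in E17.5 males against 2.24 and 2.05 in E13.5 males, and 0.60 and 0.60 in E17.5 females against 1.79 and 1.93 in E13.5 females. It was lower at E17.5 by -1.37 ± 0.32 in males (adjusted p = 0.00299) and -1.26 ± 0.32 in females (adjusted p = 0.00658, or 0.0528 without E13.5 female replicate 2). Over the mean of its probes both missed the threshold (adjusted p = 0.0716 in males and 0.0525 in females). It lay lower again in oogonia, at -1.42 and -1.28, by -1.95 ± 0.32 relative to E17.5 females (adjusted p = 0.00189, or 0.0640 with slide as a random block), and in spermatogonia, at -0.59 and -0.18, by -1.16 ± 0.32 relative to E17.5 males (adjusted p = 0.0281, lost without any single one of the 4 arrays). Setdb1 was called in no comparison.

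Of the lysine 9 methyltransferases, Suv39h1 and Ehmt1 were lower in E17.5 males than in females. Suv39h1 is X-linked, and its probe was well above background on each array of E13.5 and E17.5 females and on none of E13.5 and E17.5 males. At E17.5 females had -5.57 and -4.80, and Suv39h1 was at least 2.33-fold lower in males (adjusted p = 6.18e-05). At E13.5 it was at least 1.23-fold lower in males (adjusted p = 0.0130), a call lost without E13.5 female replicate 1 (adjusted p = 0.137) or E13.5 male replicate 2 (adjusted p = 0.0623) and reading 0.20 with normexp correction. Suv39h1 was lower in oogonia than in E17.5 females by -2.01 ± 0.44 (adjusted p = 0.00800, or 0.152 with slide as a random block), and the call was also lost without E17.5 female replicate 2 (adjusted p = 0.0887) or oogonia replicate 2 (adjusted p = 0.0824). Ehmt1, which methylates lysine 9 in euchromatin, had -1.38 and -1.64 in E17.5 males against -0.18 and -0.18 in E17.5 females (-1.33 ± 0.33, adjusted p = 0.00376). Suv39h2 was 0.95 ± 0.38 higher in spermatogonia than in oogonia (adjusted p = 0.0483), while its other probe read -0.32. That call was lost without any single one of the 4 arrays (adjusted p between 0.0896 and 0.216), and the difference was -0.26 in the deposited table.

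Kdm1b rose at both steps of PGC development. It lay at -5.64 and -4.43 in E10.5 males, -2.63 and -2.72 in E13.5 males and 1.82 and 2.46 in E17.5 males. In females it lay at -5.13 and -3.72, then -1.57 and -1.47, then 1.18 and 0.58. Within each sex no 2 stages overlapped, and replicate 1 of each E10.5 sex was not well above background. The increase was 2.63 ± 0.35 for E13.5 against E10.5 (adjusted p = 4.69e-05), with 3.28 and 1.98 on the 2 scan days, 4.82 ± 0.50 for E17.5 against E13.5 in males (adjusted p = 3.79e-06) and 2.40 ± 0.50 in females (adjusted p = 0.00168). The male increase was larger by 2.41 ± 0.70 (adjusted p = 0.0187), and that call was lost without E13.5 female replicate 1 or 2, E17.5 female replicate 2 or E17.5 male replicate 2 (adjusted p between 0.0505 and 0.0823). Kdm1b was 1.26 ± 0.50 higher in E17.5 males than in females (adjusted p = 0.0460), a call lost without any single one of the 4 arrays (adjusted p between 0.0567 and 0.245). It had 0.75 and 0.40 in spermatogonia against 2.16 and 2.15 in oogonia, a difference of -1.58 ± 0.50 (adjusted p = 0.0159, or 0.215 with slide as a random block). That call was also lost without either oogonia array or spermatogonia replicate 2 (adjusted p between 0.0639 and 0.0953).

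**Figure D4:**
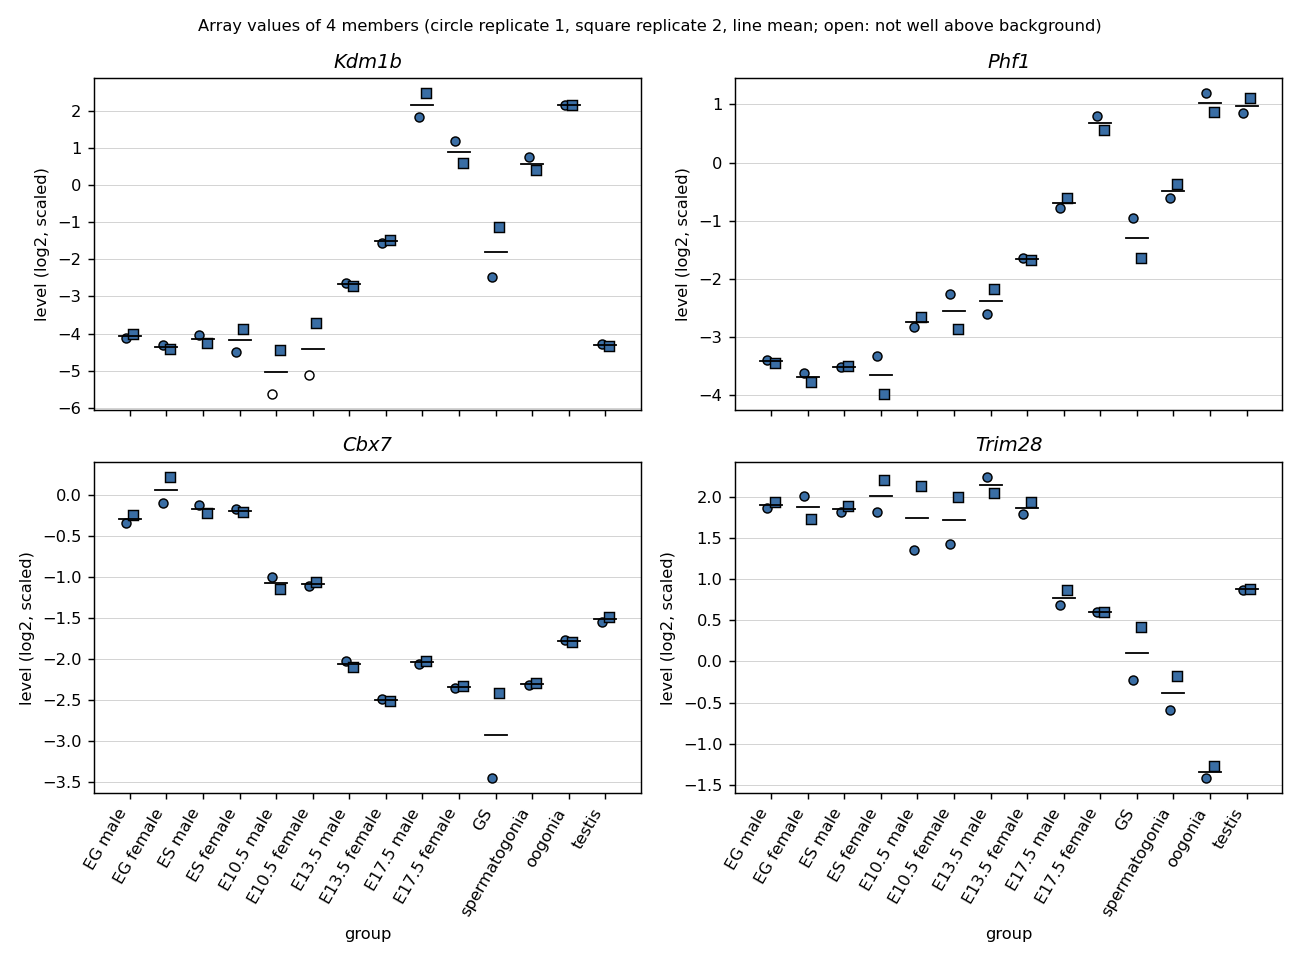
Array values of Kdm1b, Phf1, Cbx7 and Trim28 (log2 level on each vertical axis, each with its own scale) in the 14 groups. Circles are replicate 1, squares replicate 2, lines means, and open circles arrays where the probe was not well above background. Kdm1b and Phf1 climb with PGC stage and lie low in EG and ES cells, and Cbx7 is lower in E13.5 than in E10.5 PGC and highest in EG and ES cells. Trim28 is lower in E17.5 PGC, spermatogonia and oogonia than in PGC of E10.5 and E13.5.

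Of the other demethylases, Kdm5b and Kdm2a were higher at E13.5 than at E10.5. Kdm5b, an H3 lysine 4 demethylase, had -2.20 and -2.30 in E13.5 males and -2.35 and -2.07 in E13.5 females, against -5.74 and -3.17 in E10.5 males and -4.80 and -3.24 in E10.5 females. The difference was 2.01 ± 0.46 (adjusted p = 0.00348), or 3.0 and 1.02 on the 2 scan days, and the lower E10.5 value of each sex was not well above background. It was lower in oogonia than in E17.5 females by -3.0 ± 0.65 (adjusted p = 0.00788), a call lost without oogonia replicate 1 (adjusted p = 0.0924), without E17.5 female replicate 2 (adjusted p = 0.0818) and with slide as a random block (adjusted p = 0.0720). Kdm2a, a lysine 36 demethylase, was 0.88 ± 0.22 higher at E13.5 than at E10.5 (adjusted p = 0.00569, or 0.0761 without the E10.5 replicate 1 arrays) and 1.39 ± 0.30 higher in spermatogonia than in oogonia (adjusted p = 0.00139).
Of the Kdm4 family of lysine 9 demethylases, Kdm4b was 1.26 ± 0.31 higher in E17.5 than in E13.5 females (adjusted p = 0.00524, or 0.0576 without E13.5 female replicate 2), and Kdm4c by 1.86 ± 0.58 (adjusted p = 0.0228, lost without E13.5 female replicate 1 or E17.5 female replicate 2, adjusted p = 0.166 and 0.188). Kdm4d, the member of the family known for its testis expression, had -3.33 and -3.07 in E17.5 females and was not well above background on either array of E17.5 males, where it was at least 9.21-fold lower (adjusted p = 2.82e-04). Its increase of 3.13 ± 0.86 in E17.5 against E13.5 females (adjusted p = 0.0110) was lost without replicate 2 of either group (adjusted p = 0.0823 and 0.0600). It was at least 4.54-fold lower in spermatogonia than in oogonia (adjusted p = 0.0153), lost without spermatogonia replicate 2 or either oogonia array (adjusted p between 0.0525 and 0.0979). Kdm4b and Kdm4c were also lower in E17.5 males than in females (-0.83 ± 0.31, adjusted p = 0.0341, and -1.44 ± 0.58, adjusted p = 0.0499), and the Kdm4b call was lost without any single one of the 4 arrays (adjusted p between 0.0779 and 0.143), while the Kdm4c call was kept without only 1, E17.5 female replicate 1.

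EG cells were set against the PGC of E10.5 and E13.5, 4 arrays against 8, with all groups weighted equally. Within PRC2, Eed had -0.26 and -0.09 in EG males and 0.61 and 0.00 in EG females, against -2.10 to -0.80 over the 8 PGC arrays. Eed was higher in EG cells by 1.48 ± 0.23 (adjusted p = 7.18e-05) and Suz12 by 0.83 ± 0.20 (adjusted p = 0.00283), with no overlap in either. The Ezh2 difference was -0.45 ± 0.20, which was not called (adjusted p = 0.0752). The accessory subunit Mtf2 was higher by 0.73 ± 0.21 (adjusted p = 0.00989, or 0.0502 without EG female replicate 2) and Phf1 lower by -1.22 ± 0.19 (adjusted p = 9.87e-05).
The Cbx readers of PRC1 split. Cbx7 had -0.34 and -0.25 in EG males and -0.10 and 0.21 in EG females, against -2.51 to -1.01 in PGC, and was higher by 1.56 ± 0.17 (adjusted p = 3.15e-06). Cbx6 was higher too, by 1.38 ± 0.23 (adjusted p = 1.43e-04). Cbx8 (-2.81 ± 0.41, adjusted p = 4.71e-05) and Cbx2 (-1.73 ± 0.29, adjusted p = 1.55e-04) were lower in EG cells, although Cbx8 was well above background on only 2 of 8 PGC arrays and Cbx2 on 5, so the sizes rest partly on undetected signal. Those 2 arrays, of E13.5 females, had Cbx8 at -4.91 and -5.08, against -11.17 to -8.75 in EG cells. Among the other PRC1 genes Pcgf5 was lower by -1.76 ± 0.17 (adjusted p = 5.22e-07), with -2.88 and -2.66 in EG males and -3.03 and -2.33 in EG females against -2.22 to -0.37 in PGC.
In the lysine 9 system Suv39h1, well above background on 3 of the 8 PGC arrays, was lower in EG cells by -2.15 ± 0.27 (adjusted p = 9.50e-06), a size that rests partly on undetected signal, and Suv39h2 by -0.94 ± 0.23 (adjusted p = 0.00363), while Cbx1 was higher by 1.07 ± 0.23 (adjusted p = 0.00142). The Trim28 difference was 0.02 ± 0.19 (adjusted p = 0.937), while its other probe read -0.86. Kdm4c had -3.19 and -3.04 in EG males and -2.46 and -2.02 in EG females, against -5.90 to -4.04 in PGC, and was higher by 2.41 ± 0.36 (adjusted p = 5.03e-05). Its probe was not well above background on replicate 1 of either E10.5 sex or on E13.5 male replicate 2. That size thus rests partly on undetected signal, and the remaining PGC arrays had -5.81 to -4.04. Kdm1b was lower by -0.80 ± 0.30 (adjusted p = 0.0440), with EG values (-4.42 to -4.02) inside the PGC range (-5.64 to -1.47), and that call was kept without only 2 of the 12 arrays, replicate 1 of each E10.5 sex.

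**Figure D5:**
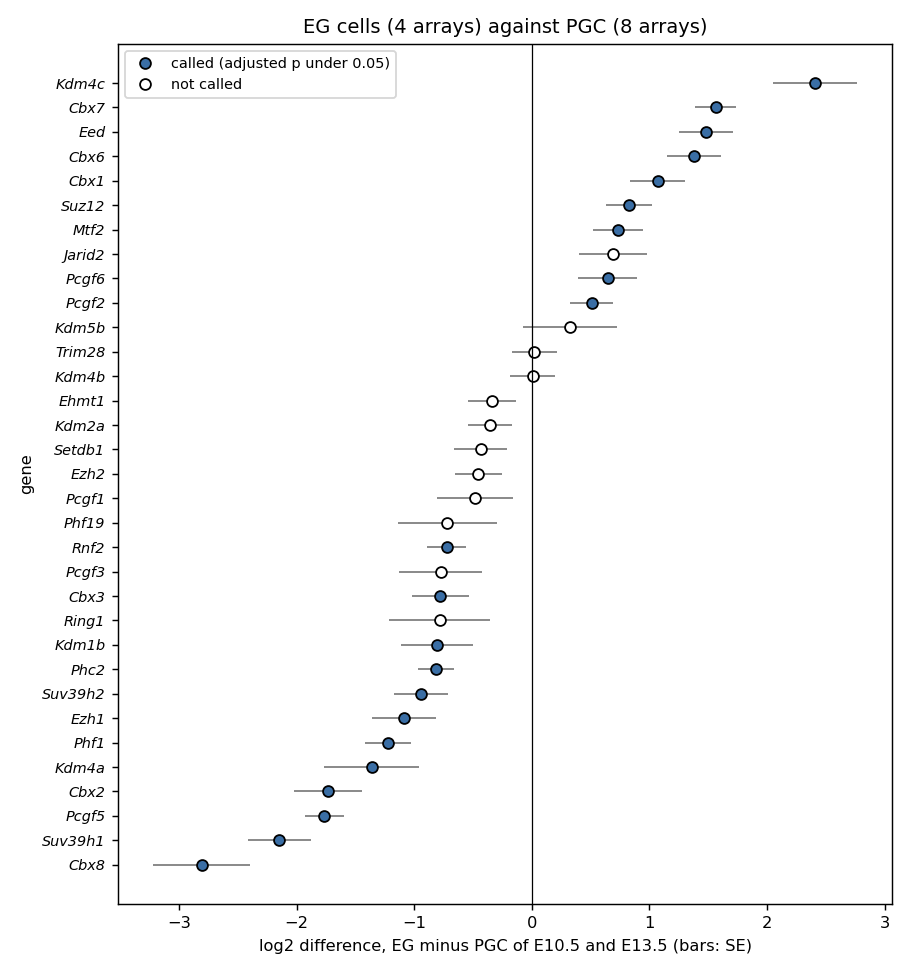
Log2 difference of EG cells (4 arrays) minus PGC of E10.5 and E13.5 (8 arrays) with its standard error, for the 33 members tested. Filled symbols are called, open ones are not. Kdm4c (2.41), Cbx7 (1.56) and Eed (1.48) lie highest, and Pcgf5 (-1.76) lies low. The Kdm4c size rests partly on PGC arrays where its probe was not well above background. Cbx8 and Suv39h1 are drawn lowest, but 6 and 5 of their 8 PGC arrays were not well above background, so their distance from 0 is not a measured size.

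With slide as a random block 4 members were called in place of 21, which were Kdm4c (adjusted p = 0.0282), Cbx7 (0.0349), Suv39h1 (0.0484) and Pcgf5 (0.0108). In the deposited table, which centres each array on its median, the split was 10 higher and 2 lower in place of 9 and 12. Fibroblast genes were higher in EG males (-0.64 to 0.31, 4 of 4 well above background) than in EG females (-4.89 to -1.53, 1 of 4) and PGC of E10.5 and E13.5 (-2.31 to -1.76), and their part was not tested. Against ES cells EG cells differed in Cbx3, lower by -1.11 ± 0.28 (adjusted p = 0.0325), with -0.45 and -0.32 in EG males and -0.48 and -0.64 in EG females against 0.24 and -0.03 in ES males and 1.08 and 1.28 in ES females. No other member passed, and this call was lost without any single one of the 8 arrays.

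GS cells had less Kdm1b than spermatogonia, with -2.48 and -1.14 against 0.75 and 0.40 (-2.38 ± 0.50, adjusted p = 0.00276, or 0.0537 without GS replicate 1). Rnf2 was lower by -1.84 ± 0.27 (adjusted p = 2.02e-04), with -4.14 and -4.12 in GS cells against -2.24 and -2.34 in spermatogonia, and Kdm2a by -1.73 ± 0.30 (adjusted p = 8.00e-04). Cbx6 was higher by 1.69 ± 0.37 (adjusted p = 0.00391, or 0.0665 without GS replicate 1), and Jarid2 lower by -1.57 ± 0.48 (adjusted p = 0.0256), although its other 2 probes read 0.09 and -0.09. The Jarid2 call was lost without either spermatogonia array or GS replicate 1 (adjusted p between 0.106 and 0.271). With slide as a random block 0 of the 33 members were called (limma; 5 at an unadjusted p under 0.05). Fibroblast genes summed to 3.89 in GS replicate 1 and 0.96 in replicate 2, against 0.12 and -0.0032 in spermatogonia, and the 2 GS arrays were the least alike pair of the study (r = 0.914 across genes). Their part was not tested.

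GS cells and testis lie on the same slide. Kdm4d was at 0.21 and 0.31 in testis, while GS cells had -7.41 and -7.37, lower by -7.65 ± 0.86 (adjusted p = 2.17e-06). Suv39h2, a lysine 9 methyltransferase known for its expression in mouse testis, had -4.64 and -3.76 in GS cells against -1.22 and -1.35 in testis (-2.91 ± 0.38, adjusted p = 9.04e-06), while its other probe read 0.94. Phf1 (-2.28 ± 0.32, adjusted p = 1.88e-05) and Pcgf6 (-2.20 ± 0.41, adjusted p = 3.09e-04) were lower in GS cells too. Higher in GS cells were Suv39h1 (3.47 ± 0.44, adjusted p = 7.12e-06), Pcgf2 (2.92 ± 0.29, adjusted p = 7.38e-07), Cbx8 (2.82 ± 0.67, adjusted p = 0.00251), Ehmt1 (2.59 ± 0.33, adjusted p = 8.37e-06) and Kdm1b (2.51 ± 0.50, adjusted p = 5.68e-04). The Suv39h1 probe was not well above background on testis replicate 1, so that size rests partly on undetected signal. All 10 of the largest changes kept their call without any single array. Spermatocyte and spermatid genes summed to 5.11 and 5.18 in testis and -3.01 and -1.95 in GS cells, and supporting cell genes to 3.30 and 3.23 in testis and 0.85 and -1.55 in GS cells, and the part of these cells was not tested.

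A further list of histone methylation genes outside the 46, 39 of them with a probe, was counted the same way. Between E13.5 and E10.5, 8 of 34 tested rose and 1 fell (31.8% of all genes were called), and Nsd1, an H3 lysine 36 methyltransferase, was among those that rose (1.26 ± 0.19, adjusted p = 1.25e-04). Between E17.5 and E13.5 females, 5 of 34 rose and 5 fell (32.6% of all genes), with Setd1b, an H3 lysine 4 methyltransferase, at 2.05 ± 0.35 (adjusted p = 3.86e-04) and Nsd1 again higher (1.65 ± 0.27, adjusted p = 2.45e-04). At E17.5, 3 of 34 were higher in males and 8 lower (49.4% of all genes), among them the COMPASS partner Men1 (-1.81 ± 0.28, adjusted p = 8.26e-05), the arginine methyltransferase Carm1 (-1.69 ± 0.33, adjusted p = 5.89e-04) and, higher in males, the arginine methyltransferase Prmt5 (1.58 ± 0.38, adjusted p = 0.00299). In EG cells against PGC 5 of 37 were higher and 13 lower (41.9% of all genes), with Setd1b at 1.61 ± 0.21 (adjusted p = 1.81e-05), Nsd1 at 1.43 ± 0.16 (adjusted p = 3.96e-06) and the demethylase Kdm8 at -1.62 ± 0.38 (adjusted p = 0.00267).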

How the data were processed

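RNA of 28 samples was labelled with Cy3 and hybridised to 1 array each. The deposited files hold scanner intensity values, written by Agilent Feature Extraction 10.5.1.1 per the submitters' processing notes and the file headers, and the deposited values hold log2 processed signal minus each array's median, as a comparison with the scanner values showed. From the processed signal, log2 values were taken minus each array's 75th percentile over the 7227 probes well above background on all arrays. The 1417 control spots and 514 of 43803 probes marked non-uniform on an array were left out. RefSeq accessions named 16759 probes with 13142 symbols (GRCm38.p6), 27044 stayed unnamed, and the array's own annotation is of an older build. The brightest probe stood for a gene.

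limma 3.58.1 (R 4.3.3, with data.table version 1.17.8) fitted 1 mean per group over 28 arrays (14 residual degrees of freedom) and was tested on simulated data. A gene entered a test where both arrays of at least 1 compared group were well above background. Where a compared group had no array well above background, the fold is given as a bound, "at least N-fold", from the lowest signal among probes well above background. The ± after a fitted difference is its standard error. No depth exists for arrays, so their number limits the precision. Same-numbered PGC arrays, which share a scan day, deviated together in 15 of 15 pairs (r between 0.306 and 0.796 over 6194 genes), so replicate numbers pair them. The members, the marker and gene lists and the tests were chosen with earlier results of these data known. Every called member may be named, those with the largest change in each role, up to 10 a comparison, with full statistics, and a few others where a sentence turns on them. Of the other histone methylation genes up to 4 with the largest called change were named per comparison, and a result among them is not reported here. Alternatives were quantile normalization, the percentile over all probes, normexp background correction of median signals (offset 50), the deposited table, no filter on dim probes, marked spots set to missing, the mean of a gene's probes, only the groups compared, slide, scan day or replicate as a block, and leaving out each array.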

Additional observations from a re-analysis of the deposited data

Results flagged for a closer look

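For 8 members the change between E13.5 and E17.5 differed between male and female PGC by a test of the difference itself (limma over 28 arrays, male change minus female change). Phc2 differed by 2.55 ± 0.35 log2 units (SE; adjusted p = 9.38e-05), with changes of 2.53 in males and -0.02 in females. Pcgf2 differed by 2.80 ± 0.42 (adjusted p = 1.65e-04), with -0.01 in males and -2.80 in females. These 2 kept the call without any single array.

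Cbx1 differed by -2.09 ± 0.53 (adjusted p = 0.00879), with -1.76 in males and 0.33 in females, and lost the call without E17.5 male replicate 2 (adjusted p = 0.0547). Kdm1b differed by 2.41 ± 0.70 (adjusted p = 0.0187), with 4.82 in males and 2.40 in females. Pcgf6 differed by -1.91 ± 0.58 (adjusted p = 0.0221), with -0.64 in males and 1.28 in females. Cbx2 differed by 2.17 ± 0.67 (adjusted p = 0.0243), with 0.96 in males and -1.21 in females, neither of which passed alone. Its probe was not well above background on E13.5 male replicate 2 or E17.5 female replicate 1, so these sizes rest partly on undetected signal.

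Phf19 differed by 3.45 ± 0.97 (adjusted p = 0.0159), but of these 4 groups only E13.5 females had it well above background on any array, so the size of the difference is not measured. The female change is given as a bound, at least 4.25-fold lower at E17.5, and the male change has no value. Cbx8 differed by 2.91 ± 0.95 (adjusted p = 0.0331), but no E13.5 male array and only 1 of 2 E17.5 female arrays were well above background. The male change is a bound, at least 2.07-fold higher at E17.5, so the size of the difference is not measured. It lost the call without each of 7 of the 8 arrays, the exception being E17.5 female replicate 2. Kdm1b, Pcgf6, Cbx2 and Phf19 each lost it without at least 1 array.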

How the results depend on the processing

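Counts of called members moved by over 1.5 times with several settings. With normexp correction 3 members were called in E13.5 against E10.5 PGC (10 in the reported fit), 6 in E17.5 against E13.5 females (13), 4 for the difference between the sexes' changes (8), 1 between the sexes at E13.5 (6), 9 at E17.5 (14), 1 in spermatogonia against E17.5 males (6), 0 in EG against ES cells (1; 8 unadjusted) and 17 in GS cells against spermatogonia (5). With the deposited table the counts were 2 for E13.5 against E10.5, 3 for E17.5 against E13.5 in each sex (12 in males), 3 for the difference between the sexes' changes, 9 between the sexes at E17.5, 0 in oogonia against E17.5 females (7; 3 unadjusted), 1 in spermatogonia against E17.5 males, 8 in spermatogonia against oogonia (13), 12 in EG cells against PGC (21), 0 in EG against ES cells (2 unadjusted) and 0 in GS cells against spermatogonia (6 unadjusted). With only the groups compared in the fit they were 0 for E13.5 against E10.5 (6 unadjusted), 3 in females and 0 in males (8 unadjusted) for E17.5 against E13.5, 4 for the difference between the sexes' changes, 0 between the sexes at E13.5 (4 unadjusted), 8 at E17.5, 0 in oogonia (8 unadjusted) and 0 in spermatogonia (10 unadjusted) against E17.5 PGC, 4 in EG against ES cells and 0 in GS cells against spermatogonia (7 unadjusted). This fit has fewer samples. With slide as a random block (consensus correlation 0.645) they were 10 between the sexes at E13.5, 2 in spermatogonia against oogonia, 4 in EG cells against PGC, and 0 in oogonia (7 unadjusted) and spermatogonia (9 unadjusted) against E17.5 PGC, EG against ES cells (1 unadjusted) and GS cells against spermatogonia (5 unadjusted). Without the filter on dim probes 3 were called in spermatogonia against E17.5 males and 0 in EG against ES cells (8 unadjusted), with the mean of probes 2 in EG against ES cells, and with quantile normalization 8 in GS cells against spermatogonia. The cause was not tested.

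With the replicate block no count moved by over 1.5 times (10 members called in E13.5 against E10.5, 13 and 12 in E17.5 against E13.5 females and males, 15 between the sexes at E17.5). Leaving out 1 array gave 6 to 11 calls for E13.5 against E10.5, 8 to 12 for E17.5 against E13.5 in each sex, 3 to 7 for the difference between the sexes' changes, 2 to 7 between the sexes at E13.5, 11 to 14 at E17.5, 3 to 8 in oogonia and 2 to 3 in spermatogonia against E17.5 PGC, 6 to 10 in spermatogonia against oogonia, 15 to 22 in EG cells against PGC, 0 in EG against ES cells (6 to 8 unadjusted), 3 to 7 in GS cells against spermatogonia and 13 to 17 against testis. E13.5 female replicate 1 moved the first to 6, and E13.5 or E17.5 female replicate 2 the female change to 8. Leaving out both E10.5 replicate 1 arrays, chosen after seeing the data, gave 20 in EG cells against PGC and 11 for E13.5 against E10.5. Over single members and paralogue differences together, 1840 results kept direction and side of the threshold, 522 lost the call and 23 reversed. The paralogue differences, none called in the reported fit, are among those kept and those reversed. With normexp correction Ezh1 (-0.30) and Kdm4b (-0.094) reversed for E13.5 against E10.5, Cbx8 (0.013) and Suv39h1 (0.20) between the sexes at E13.5, Ring1 (0.32) in spermatogonia against oogonia, and Pcgf6 (-0.25) in EG cells against PGC. In the deposited table Trim28 (-0.25) and Suv39h2 (-0.26) reversed in spermatogonia against oogonia, and Cbx3 (0.0037) and Rnf2 (0.060) in EG cells against PGC. With quantile normalization Suv39h2 minus Suv39h1 reversed at E13.5 (-0.088) and Cbx7 minus Cbx2 at E17.5 (-0.24). Without 1 array, Suv39h2 minus Suv39h1 ran between -0.094 and 0.70 at E13.5 and between -0.52 and 0.44 at E17.5, Phf19 minus Phf1 at E13.5 between -0.87 and 0.15, and Cbx7 minus Cbx2 at E17.5 between -0.13 and 0.80.

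Scaling also moved the split of higher and lower calls. Members in EG cells against PGC were 9 higher and 6 lower with quantile normalization and 6 and 20 with normexp (9 and 12 reported), where the median of all genes was 0.38 and -1.73 in place of -0.19. Between spermatogonia and oogonia they were 0 and 8 in the deposited table and 5 and 12 with a percentile taken over all probes (7 and 6 reported). At E17.5 the deposited table gave 0 higher in males and 9 lower (4 and 10 reported). Probes not well above background on 16 arrays with under 50% of probes detected limit the dim members.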
